A study of Mus musculus with 2 samples.

Results

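The cells described here are the gastruloid cells richest in mitotic transcripts. For every cell, the transcript counts of 10 genes that act in mitosis (Ccnb1, Cdc20, Plk1, Cenpa, Cenpe, Cenpf, Tpx2, Ube2c, Aurka and Hmmr) were summed and divided by the total count of the cell. The 10% of cells with the highest share in each library were taken, which gave 1930 of 19294 cells. They are compared with the remaining 90% of cells. The measured levels of the 10 genes therefore chose the cells, and their own difference is a description and not a finding. No cell was observed in mitosis, since transcript counts were the only readout.

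Gastruloids are clumps of embryonic stem cells in which a body axis starts to form. Some 300 mouse R1 embryonic stem cells were aggregated in serum-free N2B27 medium, and the aggregates were given 3 µM CHIR for 12 hours, starting on day 2. CHIR inhibits GSK3 and so switches on the Wnt pathway. They were pooled and collected at day 2.5. There were 2 libraries of single cells, 1 labelled wild type and 1 labelled as a double mutant of Sp5 and Sp8, which are transcription factors of the Wnt pathway. Both groups received CHIR, so no library without it enters the comparison. The number of clones behind the mutant line is not given in the sources used here. With 1 library per genotype there are no replicates, no test was made, and every interval is a 95% interval that covers counting error only.

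A dividing cell copies its DNA, then condenses and separates the chromosomes and splits. Cyclin B with the kinase Cdk1 starts mitosis, kinetochores tie chromosomes to the microtubules of the spindle, and the anaphase-promoting complex ends mitosis by marking cyclin B for destruction. Transcripts of these factors build up late in the cycle, after the replication genes have had their peak. Many late genes are held down early in the cycle by a complex that binds a short promoter element, the cell cycle genes homology region (CHR), and are activated through CCAAT boxes bound by NF-Y. Replication genes are instead known for E2F sites. Pluripotent cells of the mouse divide rapidly, with short gap phases. Where 2 values follow each other below, the first is from the wild-type-labelled library and the second from the knockout-labelled library, and the chosen cells are named before the rest.

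Promoters are shown because many genes of these cells share letters that the choice of cells did not use. Those shown are picked examples, and other genes of these cells lack the letters, as the counts further on show. Each line gives 150 bases before and 30 bases after the start of a RefSeq gene on GRCm38.p6, read in the direction of the gene. Capitals mark the CHR letters TTTGAA, and also CCAAT and the E2F words spelled out further on, on either strand. Cdk1 holds an E2F word beside the other 2 elements, and Cdc6 holds an E2F word alone. Cdc20, Cenpf and Ube2c belong to the 10 genes, Aspm and Cdk1 are mitosis genes outside them, and Cdc6 is a replication gene that was lower in these cells.
Cdc20 (chr4:118437314-118437493, minus strand): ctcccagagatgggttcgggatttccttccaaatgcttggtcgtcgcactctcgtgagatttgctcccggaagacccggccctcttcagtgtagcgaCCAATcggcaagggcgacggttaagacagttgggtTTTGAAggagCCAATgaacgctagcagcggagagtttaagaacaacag
Cenpf (chr1:189688057-189688236, minus strand): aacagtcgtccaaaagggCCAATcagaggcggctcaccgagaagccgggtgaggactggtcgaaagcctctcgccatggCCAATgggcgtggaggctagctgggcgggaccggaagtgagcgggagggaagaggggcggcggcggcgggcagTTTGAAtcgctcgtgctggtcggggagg
Ube2c (chr2:164769779-164769958, plus strand): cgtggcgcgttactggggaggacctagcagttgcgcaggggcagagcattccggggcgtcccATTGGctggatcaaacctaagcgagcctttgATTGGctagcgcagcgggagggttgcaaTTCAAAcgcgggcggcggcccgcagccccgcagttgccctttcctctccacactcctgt
Aspm (chr1:139454623-139454802, plus strand): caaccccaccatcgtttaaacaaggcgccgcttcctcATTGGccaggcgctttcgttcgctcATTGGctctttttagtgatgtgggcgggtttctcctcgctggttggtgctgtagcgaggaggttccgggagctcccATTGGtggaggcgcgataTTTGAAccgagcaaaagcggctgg
Cdk1 (chr10:69352883-69353062, minus strand): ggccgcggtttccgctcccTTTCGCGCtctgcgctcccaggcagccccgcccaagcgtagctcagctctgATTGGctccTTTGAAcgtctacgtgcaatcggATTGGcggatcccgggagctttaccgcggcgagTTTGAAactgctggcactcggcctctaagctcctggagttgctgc
Cdc6 (chr11:98908001-98908180, plus strand): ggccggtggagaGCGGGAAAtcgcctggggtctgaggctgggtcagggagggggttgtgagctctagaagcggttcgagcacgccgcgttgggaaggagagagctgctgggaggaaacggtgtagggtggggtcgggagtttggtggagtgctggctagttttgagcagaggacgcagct
Counted from the start as base 0, the CHR letters begin 18 bases before it in Cdc20 and 29 bases before it in Ube2c. They begin at base 2 in Cenpf and at base 6 in Aspm. Cdk1 holds them at 71 and at 15 bases before the start.

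The 2 libraries held 104083993 and 103187025 transcript counts (UMIs, tags that let copies of 1 molecule be counted once) in the wild-type-labelled and the knockout-labelled library. Barcodes with at least 2500 UMIs, at least 1000 genes and at most 10% mitochondrial UMIs were kept as cells, which left 8707 and 10587 cells with medians of 10571 and 8637 UMIs. The libraries shared 27 of the kept barcodes. Sp5 and Sp8 go against the labels: in the cells richest in mitotic transcripts Sp5 stood at 109 CPM (counts scaled so that all UMIs of a summed group of cells give the same total) in the wild-type-labelled library and at 480 CPM in the knockout-labelled library. Sp8 stood at 22.3 and 47.1 CPM. The libraries are therefore called by their labels only, and no difference between them is read as loss of Sp5 and Sp8.

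The chosen cells were 871 of 8707 in the wild-type-labelled library and 1059 of 10587 in the knockout-labelled library. Their median share of the 10 genes was 0.344% and 0.330%, against 0.135% and 0.139% in the remaining cells. The highest single cells reached 0.626% and 0.658%. The lowest cell inside the choice had 0.3024% and the highest outside had 0.3023% in the wild-type-labelled library. Both stood at 0.2909% in the knockout-labelled library. Barcodes with 10 to 100 UMIs, which hold mostly free RNA, had 0.157% and 0.159%, near the level of the median cell. The share ran on without a gap or a peak of its own above the limit, and these cells are described as the upper end of a range. The 10 genes gave a median of 44 and 34 UMIs per chosen cell, and 13 and 11 in the rest. Counting error at such numbers can blur a gap, so whether these cells form a separate group was not tested.

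**Figure D1:**
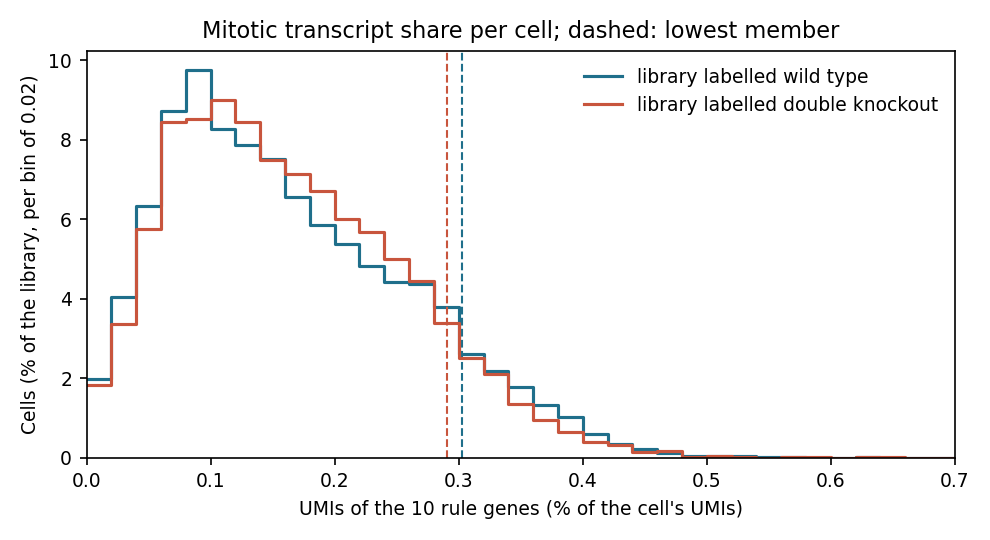
Distribution of cells by the share of their UMIs that came from the 10 mitotic genes (horizontal axis, percent of the UMIs of the cell), as the percent of cells of each library per bin of 0.02 (vertical axis). Dashed lines mark the lowest chosen cell, 0.3024% in the wild-type-labelled library and 0.2909% in the knockout-labelled library, and no second peak lies above them.

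The chosen cells were also deeper than the remaining cells as a whole, but depth was not greatest in them. Their median was 12371 UMIs against 10369.5 in the remaining cells of the wild-type-labelled library, and 9984 against 8518 in the knockout-labelled library. Median genes per cell were 3662 against 3240.5 and 3178 against 2856. Mitochondrial UMIs made up 3.89% against 3.83% and 4.02% against 4.09%, and ribosomal protein UMIs 23.9% in both and 24.6% against 24.4%. With cells ordered into deciles by the share of the choosing genes, the decile just below the chosen cells was deeper, with medians of 13137.5 and 10390.5 UMIs. The decile below that had 12351 and 9894. The top 1% of cells had 11486 UMIs in the wild-type-labelled library. In the knockout-labelled library they had 8487.5, no more than the 8518 of the remaining cells. Doublets were left in. Of the chosen cells, 14 (1.61%) in the wild-type-labelled library and 25 (2.36%) in the knockout-labelled library were among those with the highest doublet scores, against 7.55% and 9.15% of the remaining cells.

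Ube2c, the ubiquitin-conjugating enzyme that works with the anaphase-promoting complex, was the most abundant of the 10 genes. It stood at 858 CPM (840 to 875) in the chosen cells and 307 CPM (303 to 310) in the rest of the wild-type-labelled library, and at 791 against 308 CPM in the knockout-labelled library. Ube2c gave 24.2% and 23.2% of the UMIs of the 10 genes in the chosen cells, and 20.1% in the rest of each library. Cdc20, which activates the complex, stood at 407 against 210 CPM and at 406 against 213 CPM. Ccnb1, cyclin B1, stood at 378 against 162 CPM and at 360 against 161 CPM. These 3 genes took part in choosing the cells, so their higher levels there followed from the choice.

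Plk1, a kinase of mitotic entry and exit, stood at 166 against 67.9 CPM and at 169 against 73.1 CPM. Aurka, the spindle pole kinase, stood at 187 against 80.5 CPM and at 199 against 83.6 CPM. Tpx2, which activates Aurka on the spindle, stood at 237 against 104 CPM and at 243 against 111 CPM. The remaining 4 genes are Cenpf and Cenpe at the kinetochore, the centromeric histone Cenpa and the microtubule-associated Hmmr. Their levels in the chosen cells ran from 187 CPM for Hmmr in both libraries to 494 CPM for Cenpf in the wild-type-labelled library. Cenpa had the smallest log2 ratio of the 10 genes, 0.89 and 0.83, and Ube2c had the largest, 1.48 and 1.36.

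Each of the 10 genes was also measured in cells chosen by the other 9, so that its own counts took no part. Ube2c was then 2.26-fold higher in the chosen cells of the wild-type-labelled library and 1.96-fold higher in the knockout-labelled library. Plk1 was 2.11-fold and 1.90-fold higher, Ccnb1 1.99-fold and 1.77-fold. On the log2 scale Cdc20 had 0.69 and 0.58, and Cenpa had 0.66 and 0.54. The 10 genes thus kept a ratio above 0 on the log2 scale when left out, and each ratio was smaller than with the gene in the choice.

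**Figure D2:**
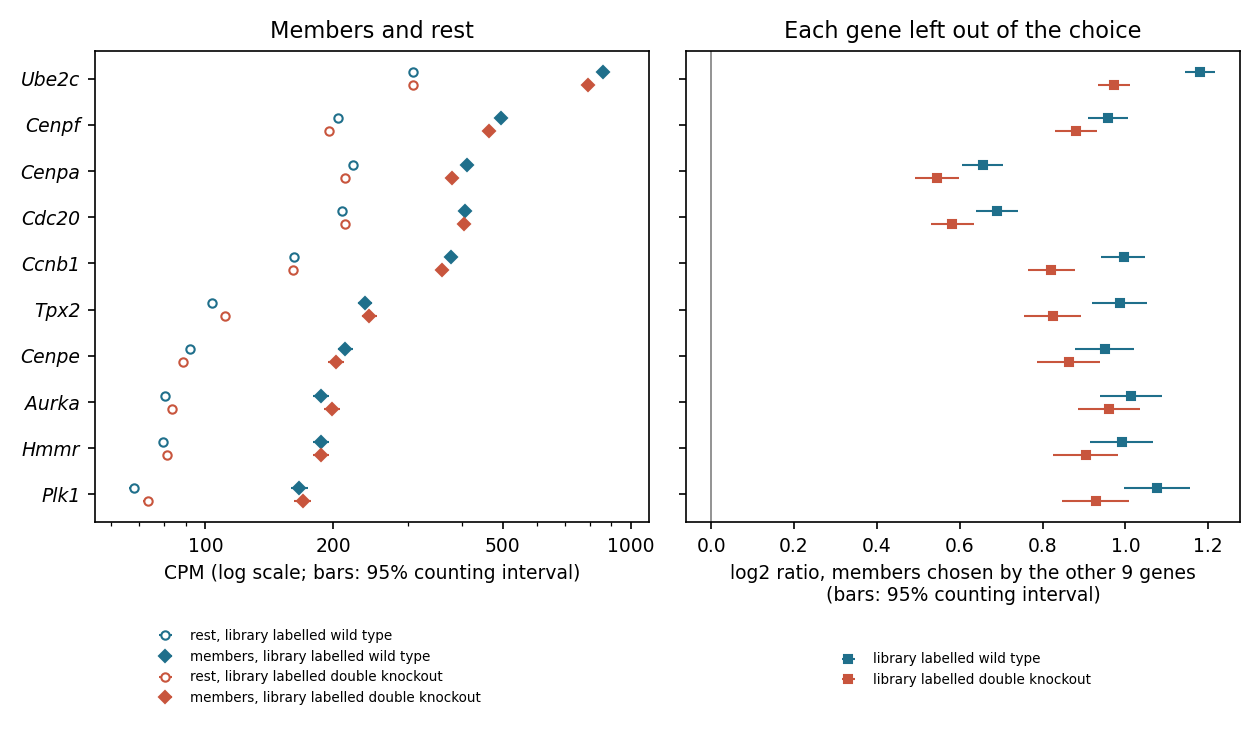
Left, level of each of the 10 genes in CPM on a log axis, in the chosen cells (members, filled) and the remaining cells (rest, open) of each library. Right, log2 ratio of each gene in cells chosen by the other 9 genes, from 0.54 for Cenpa to 1.18 for Ube2c, where bars are 95% counting intervals and all ratios lie above 0.

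All 10 genes were detected in 56.6% of chosen cells and 10.7% of the rest in the wild-type-labelled library, and in 38.1% and 7.29% in the knockout-labelled library. These shares follow depth, so each cell was thinned to 4000 UMIs, which left out 24 and 58 chosen cells. The choice itself also moved with depth: when thinned cells were scored anew, 64.1% and 63.2% of the top 10% were among the cells chosen without thinning. Ccnb1 and Plk1 took part in the choice, so their shares, given here for the cells chosen without thinning, are a description. After thinning, a Ccnb1 UMI was found in 76.4% of chosen cells (73.4 to 79.2) against 42.3% of the rest (41.2 to 43.4) in the wild-type-labelled library. Without thinning the shares were 97.1% and 71.1%. For Plk1 the thinned shares were 49.4% and 21.1%, against 85.9% and 43.6% before thinning. A cell type that should lack these genes was not at hand as a background.

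Of 7662 genes outside the 10 with a mean of at least 10 CPM, 48 (0.626%) were at least 1.5-fold higher in the chosen cells of both libraries and 9 (0.117%) were at least 1.5-fold lower. Of the 48, 26 stood in 7 lists of mitosis genes that share no gene with the choice. Of the 9, 5 were replication genes, 3 were histone genes, and 1 was the uncharacterised 2810001G20Rik. The median log2 ratio of all genes was 0.02 and 0.01, with an SD across genes of 0.18 and 0.17.

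**Figure D3:**
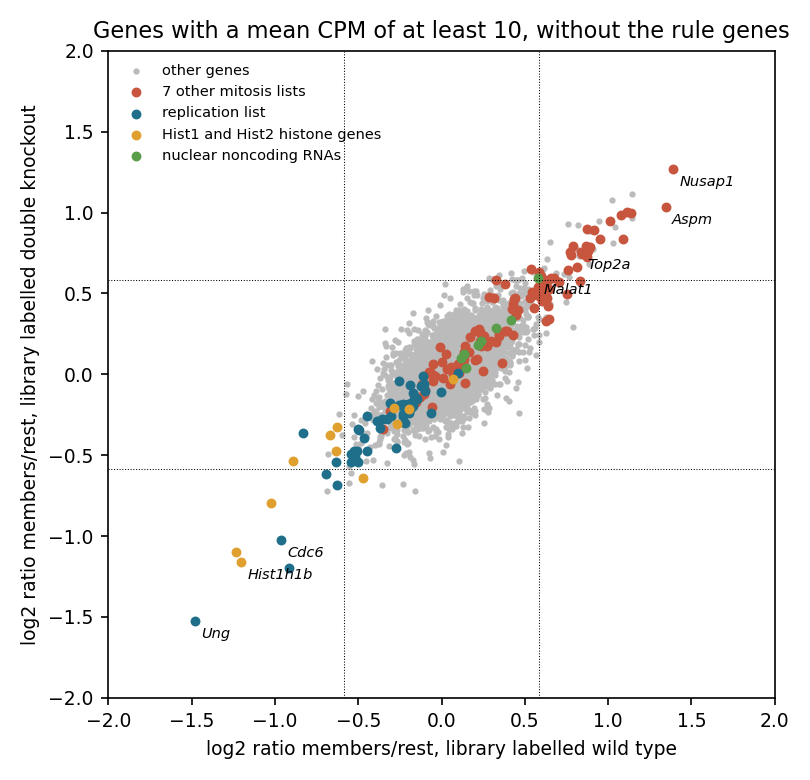
Each point is a gene with a mean of at least 10 CPM, without the 10 choosing genes, plotted by its log2 ratio of chosen cells over the rest in the wild-type-labelled library (horizontal) and in the knockout-labelled library (vertical). Dotted lines mark 1.5-fold, beyond which 48 genes lie at the upper right and 9 at the lower left, with Nusap1 and Ung at the ends.

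Spindle motors and microtubule-binding proteins, which build the spindle and slide its fibres, stood out most. All 24 genes of this list lay above 0 in both libraries, as did 41.1% of all genes, and 13 of 24 were at least 1.5-fold higher in both. The list median was 0.73 and 0.62 on the log2 scale. Nusap1, which bundles spindle microtubules, had the largest ratio of the 7662 genes. Its level was 181 CPM (173 to 190) in the chosen cells and 69.2 CPM (67.5 to 71.0) in the rest of the wild-type-labelled library, and 180 against 74.9 CPM in the knockout-labelled library. The log2 ratios were 1.39 (1.32 to 1.46) and 1.27 (1.19 to 1.34). Nusap1 spans chr2:119618298-119651244 on the plus strand of GRCm38 (GENCODE M21) and overlaps Oip5 on the other strand.

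Aspm, a spindle pole protein, stood at 71.3 against 28.1 CPM in the wild-type-labelled library and at 59.1 against 28.9 CPM in the knockout-labelled library. Its log2 ratios of 1.35 (1.23 to 1.46) and 1.03 (0.90 to 1.16) had intervals that did not meet, but with 1 library each the difference was not tested. Prc1, which crosslinks the midzone of the spindle, stood at 182 against 84.2 CPM and at 173 against 86.5 CPM. Kif18a, a motor that damps chromosome movement, stood at 50.1 against 24.8 CPM and at 44.5 against 23.1 CPM. Ckap2l and Fam83d, which bind the spindle, had log2 ratios between 0.98 and 1.13 in the 2 libraries.

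Cytokinesis genes came next, with 3 of 6 at least 1.5-fold higher in both libraries and list medians of 0.64 and 0.60. These were Ect2, Racgap1 and Kif23, which set the cleavage furrow. Ect2 stood at 78.6 against 43.8 CPM and at 68.2 against 40.7 CPM. Kif23 stood at 95.1 against 51.9 CPM and at 85.7 against 51.7 CPM. The chromosomal passenger complex corrects wrong attachments of chromosomes, and its list with cohesion genes had 3 of 10 genes called. Incenp, its scaffold, stood at 165 against 97.2 CPM and at 165 against 97.5 CPM. Its kinase Aurkb stood at 143 against 81.1 CPM and at 122 against 77.0 CPM, and the cohesion protector Sgo2a at 77.8 against 42.8 CPM and at 68.0 against 40.5 CPM. Espl1, the protease that cuts cohesin, had log2 ratios of 0.55 and 0.49, under the limit of 1.5-fold.

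Proteins of the mitotic chromosome gave 3 of 10. Mki67, which coats it, stood at 156 against 80.6 CPM and at 141 against 78.9 CPM. Top2a, the enzyme that untangles DNA, was abundant throughout, at 766 against 430 CPM and at 773 against 459 CPM. The condensin subunit Smc4 had log2 ratios of 0.59 and 0.61, while its partner Smc2 had 0.38 and 0.27. Among cyclins and regulators of Cdk1, 2 of 10 were called, Cdk1 and Cks2. Cdk1 stood at 362 against 195 CPM and at 316 against 183 CPM. Ccnb2, cyclin B2, was much closer to the rest than Ccnb1, with log2 ratios of 0.34 and 0.25. The phosphatases split: Cdc25c, which acts at entry to mitosis, had 0.55 and 0.41, and Cdc25a had -0.35 and -0.34.

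Kinetochore and checkpoint genes were a mixed group, although 3 of the choosing genes act at the kinetochore or centromere. Of 33 genes, 1 was called higher in both libraries, the inner kinetochore gene Cenpl at 19.0 against 10.4 CPM and 16.6 against 9.80 CPM. The list medians were 0.27 and 0.17, and 26 of 33 lay above 0 in both libraries. The checkpoint genes Bub1, Bub1b and Bub3, which hold back anaphase, had log2 ratios between 0.51 and 0.64. The anaphase-promoting complex lay at the level of all genes, with list medians of 0.03 and 0.01 over 17 genes. Its activator Fzr1 was called higher, at 57.2 against 26.9 CPM and at 54.7 against 30.7 CPM. Ube2s, which extends the chains that Ube2c starts, had log2 ratios of 0.46 and 0.40.

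Over the 7 mitosis lists together, 26 of 110 genes were called higher in both libraries, none was called lower, and 92 of 110 lay above 0 in both. The list medians were 0.39 and 0.35. The count was 41 when the wild-type-labelled library was taken alone and 27 with the knockout-labelled library alone. When 5 of the 10 genes (Ccnb1, Cdc20, Plk1, Cenpa and Cenpe) chose the cells in place of all 10, 11 were called, and all genes called higher numbered 21 in place of 48.

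**Figure D4:**
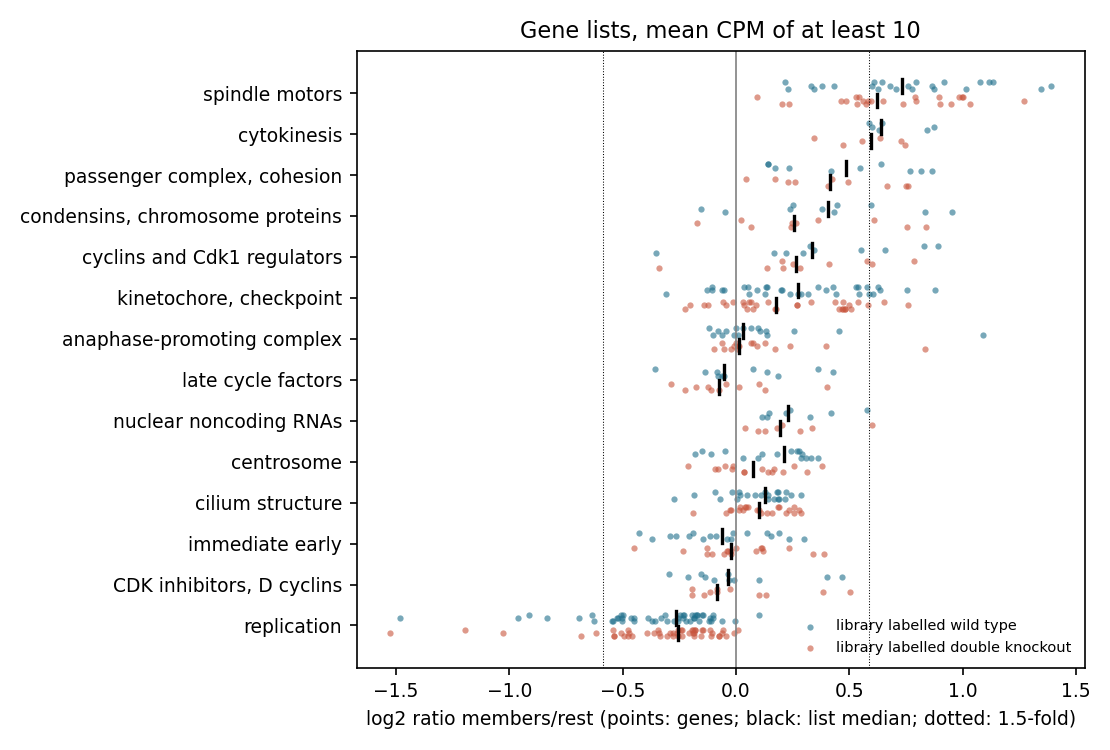
Log2 ratio of chosen cells over the rest (horizontal axis) for every gene with a mean of at least 10 CPM in 14 gene lists (vertical axis), where points are genes, blue is the wild-type-labelled library, red is the knockout-labelled library, black bars are list medians and dotted lines mark 1.5-fold. Spindle motors have the highest medians, 0.73 and 0.62, and replication genes the lowest, -0.26 in both libraries.

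The 22 genes called higher that stood in no list included several of the largest ratios. Arl6ip1, a membrane protein of the endoplasmic reticulum, was the most abundant of those named here, at 561 against 272 CPM in the wild-type-labelled library and at 493 against 263 CPM in the knockout-labelled library. Cdca2, which brings a phosphatase to chromosomes at the end of mitosis, stood at 56.9 against 29.6 CPM and at 55.3 against 28.7 CPM. Arhgef39 stood at 13.9 against 6.28 CPM and at 14.6 against 6.78 CPM. Depdc1b stood at 27.6 against 13.6 CPM and at 25.4 against 12.0 CPM, and its paralog Depdc1a had a log2 ratio of 0.89 in both libraries. Hyls1, a centriole protein, stood at 14.9 against 6.74 CPM and at 12.5 against 6.41 CPM, and overlaps Pus3 on the other strand. These low levels are seen in the intervals: for Hyls1 the log2 ratios were 1.15 (0.88 to 1.40) and 0.97 (0.67 to 1.24).

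Replication genes ran the other way. Of 50 genes, 49 lay below 0 in both libraries, against 31.4% of all genes, and 5 were at least 1.5-fold lower in both. The list median was -0.26 in each library. Ung, the glycosylase that removes uracil from new DNA, had the lowest ratio of the 7662 genes: 26.6 CPM (23.6 to 29.9) in the chosen cells against 74.3 CPM (72.5 to 76.1) in the wild-type-labelled library, and 25.3 against 72.9 CPM in the knockout-labelled library. Its log2 ratios were -1.48 (-1.66 to -1.31) and -1.53 (-1.71 to -1.35). After thinning, 10.6% of chosen cells and 26.3% of the rest had an Ung UMI in the wild-type-labelled library, and 9.49% and 25.5% in the knockout-labelled library.

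The licensing factor Cdc6, whose promoter is printed above, stood at 23.5 against 45.8 CPM and at 21.9 against 44.6 CPM. Ccne2, cyclin E2, stood at 7.58 against 14.4 CPM and at 6.20 against 14.3 CPM. The transcription factor E2f1 and the histone chaperone subunit Chaf1b made up the rest of the 5, with log2 ratios between -0.69 and -0.62. Pcna, the sliding clamp, passed the limit in 1 library only, at 159 against 247 CPM (log2 ratio -0.64) in the wild-type-labelled library and 142 against 207 CPM (-0.54) in the knockout-labelled library. The other 45 genes were under the limit in at least 1 library. The count was 3 with the top 5% or the top 20% of cells, or with UMIs per cell in place of CPM, or with the first 5 choosing genes.

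Replication-dependent histone genes of the Hist1 and other clusters are made while DNA is copied, and most of their transcripts lack a poly(A) tail. Of 67 such genes, 12 reached a mean of 10 CPM, 11 of 12 lay below 0 in both libraries and 3 were called lower. Hist1h1b, a linker histone, stood at 120 against 276 CPM and at 102 against 229 CPM. Hist1h2ap stood at 8.52 against 20.2 CPM and at 6.10 against 13.2 CPM, and Hist1h2ae at 13.5 against 27.5 CPM and at 13.4 against 23.3 CPM. The core histone genes have near-identical copies, so their counts are uncertain, and the libraries captured RNA by its poly(A) tail.

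Of 11 transcription factors and complex subunits that bind late promoters, none was called in either direction. Foxm1, an activator of late genes, had log2 ratios of 0.43 (0.28 to 0.57) and 0.40 (0.25 to 0.55). Mybl2, which works at the same promoters, had -0.36 (-0.59 to -0.15) and -0.29 (-0.50 to -0.09). Lamina and inner nuclear membrane genes lay close to 0, with Lmnb1, a B-type lamin, at 0.17 and 0.13.

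The promoter letters were counted in windows of 300 bases, 250 before and 50 after each RefSeq start, on both strands. CHR letters were found in 26 of 41 promoters of all genes called higher, in a list or not (63.4%). For the other mitosis genes called higher it was 20 of 26 promoters (76.9%), and for mitosis genes not called 37 of 85 (43.5%). CHR letters stood in 12.1% of promoters of all genes with a mean of at least 10 CPM and in 17.9% of all 32851 promoters in the table. Of the 10 choosing genes 9 were in the table, without Tpx2, and 7 of the 9 held CHR letters. Ccnb1 and Cenpe had none in this window.

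CCAAT was found in 82.9% of promoters of all genes called higher. In mitosis genes it stood in 88.5% of promoters of those called and 54.1% of those not called. It stood in 38.7% of promoters of all genes at that level and 37.4% of all promoters. Replication genes held it in 63.6% of promoters, more than the mitosis genes not called. E2F words (TTTCCCGC, TTTGGCGC, TTTCGCGC or TTTGCCGC) stood in 38.6% of promoters of replication genes and 11.5% of those of called mitosis genes, against 4.65% at that level and 2.27% overall. Of the 9 genes called lower, 5 had a promoter in the table, and 1 of those 5 (20%), that of Cdc6, held an E2F word. CHR letters stood in 13.6% of promoters of replication genes. The words of the 3 motifs differ from each other. A match is a run of letters and does not show that a factor binds there.

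When cells were ordered into deciles by the share of the 10 genes, Nusap1 ran from 0.20 times its level over all cells in the lowest decile to 2.22 times in the highest in the wild-type-labelled library, and from 0.28 to 2.10 times in the knockout-labelled library. Spindle motor genes ran from 0.57 to 1.55 times and from 0.60 to 1.49 times. Ung ran the other way, from 1.71 to 0.39 times and from 1.75 to 0.37 times. The replication list was highest in the second decile, at 1.18 and 1.16 times, was 1.13 times in the lowest decile of both libraries, and was 0.83 and 0.85 times in the chosen cells. Hist1h1b was highest in the second decile, at 1.59 and 1.58 times, and stood at 0.46 and 0.48 times in the chosen cells. The top 1% of cells, 87 and 106 cells, had the 10 genes at 2.56 and 2.58 times and cytokinesis genes at 1.76 and 1.67 times the level of all cells.

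**Figure D5:**
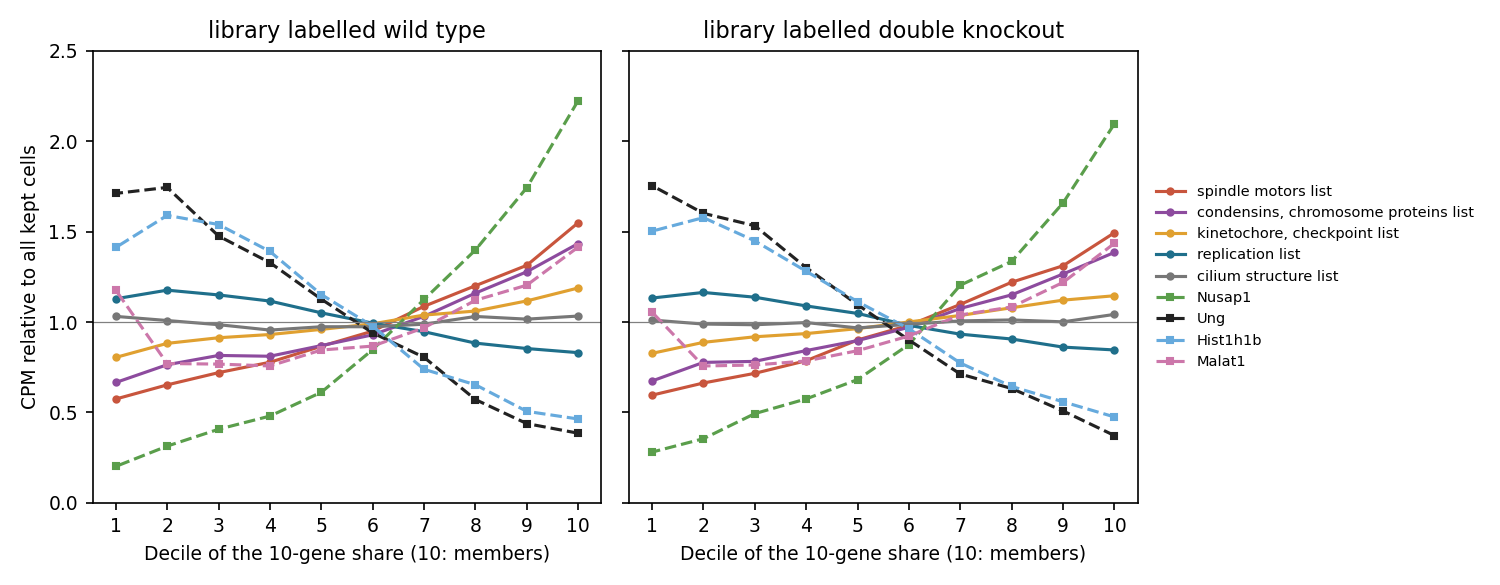
Level of 5 gene lists (solid, circles) and 4 genes (dashed, squares) relative to all kept cells (vertical axis, 1 is the level over all cells), in deciles of the share of the 10 choosing genes (horizontal axis, 10 is the chosen cells), by library. Nusap1 runs up to 2.22 and 2.10, Ung runs down to 0.39 and 0.37, cilium structure genes stay near 1, and Malat1 is high at both ends.

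Malat1, a long noncoding RNA kept in the nucleus, did not follow the order of the deciles. It was high in the chosen cells, at 3654 against 2451 CPM and at 3298 against 2180 CPM, with log2 ratios of 0.58 and 0.60. It was also above its mean in the lowest decile, at 1.18 and 1.05 times, and lay between 0.76 and 0.77 times in deciles 2 to 3 of both libraries. All 8 genes measured in a list of noncoding RNAs lay above 0 in both libraries, as did 41.1% of all genes. The list medians were 0.23 and 0.19. Meg3 had 0.33 and 0.28 and Mirg 0.42 and 0.34, both from the same imprinted region, and none of the 8 reached 1.5-fold in both libraries, Malat1 passing it in the knockout-labelled library alone. Log2 ratios per cell were all shifted upward, since the chosen cells held more UMIs. With UMIs per cell in place of CPM, the median of all genes moved to 0.17 and 0.10. Differences of higher genes thus grew and those of lower genes shrank. List medians that lay only just below 0, such as that of the immediate early list, come out above 0 on that scale.

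Genes of the centrosome and the cilium were close to the rest. Cilia are resorbed before mitosis, and centrioles then form the spindle poles. Centrosome genes had list medians of 0.21 and 0.07 over 16 genes, with Odf2, an appendage protein, at 0.36 and 0.31. Cilium structure genes had medians of 0.13 and 0.10 over 23 genes, and none was called. In the list of cilium disassembly, Nek2 had log2 ratios of 0.56 and 0.51 and Nde1 0.41 and 0.45, and the other 9 lay lower in both libraries.

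The list of CDK inhibitors and D-type cyclins, which also held Btg1 and Btg2, had none of 11 genes called. Of these, 7 lay below 0 and 3 above 0 in both libraries, with list medians of -0.04 and -0.08. Cdkn1a, the most abundant of those named here, had log2 ratios of -0.10 and -0.14. Among the 3 above 0, Cdkn2d had 0.47 and 0.50 and Cdkn1b, the inhibitor p27, 0.40 and 0.38. Short-lived transcripts of the immediate early list had medians of -0.06 and -0.02. Within that list Egr1, which was not called, stood at 137 against 184 CPM and at 145 against 198 CPM.

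Markers of cell identity could be called only where they reached a mean of 10 CPM. That held for 7 of 12 streak, 1 of 7 posterior, 4 of 12 naive, 11 of 11 primed, 5 of 10 neural and 1 of 10 extraembryonic endoderm markers. None of these was at least 1.5-fold apart in both libraries. The summed level of the 12 streak markers was 306 against 337 CPM and 507 against 534 CPM. For the other 5 lists the sum in the chosen cells was between 0.76 and 1.14 times that of the rest. Sox2, a pluripotency factor, stood at 37.7 against 32.6 CPM and at 29.6 against 24.1 CPM, but with thinned cells its log2 ratio in the wild-type-labelled library was -0.17. T, the streak marker, was found after thinning in 15.2% of chosen cells and 11.9% of the rest in the wild-type-labelled library, and in 17.2% and 16.0% in the knockout-labelled library. Eomes was found in 21.4% and 24.7%, and in 43.8% and 44.0%. Mixl1, another streak gene, stood at 8.52 against 12.6 CPM and at 10.9 against 17.5 CPM, with log2 ratios of -0.56 and -0.67, and passed 1.5-fold lower in the knockout-labelled library alone. Cdx2, a posterior gene, was found in 2.36% (1.45 to 3.62) and 3.99% (3.56 to 4.45) of thinned cells, and in 0.599% (0.220 to 1.30) and 2.56% (2.24 to 2.90). Zfp42, a naive marker, had log2 ratios of 0.46 and 0.58 without thinning. After thinning it was found in 5.19% (3.80 to 6.91) of chosen cells and 5.63% (5.12 to 6.17) of the rest in the wild-type-labelled library. In the knockout-labelled library the shares were 7.99% (6.39 to 9.85) and 6.21% (5.73 to 6.72).

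The share of each library that scores high by other mitosis genes was compared next. Of the chosen cells, 444 (51.0%, 47.6 to 54.3) were also in the top 10% by the summed 7 lists in the wild-type-labelled library, and 463 (43.7%, 40.7 to 46.8) in the knockout-labelled library. In the remaining cells the shares were 5.45% and 6.26%. In contrast, 17 (1.95%) and 52 (4.91%) chosen cells lay below the median of their library by that score. By replication genes, 749 (86.0%) and 847 (80%) lay below the median of their library. The 2 sets of 5 genes within the choice picked the same cells in part, sharing 38.3% and 33.1% of their top 10%.

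The 2 libraries were also compared within the chosen cells and within the rest. Of 5681 genes with a mean of at least 20 CPM in the chosen cells, 35 (0.616%) were at least 1.5-fold apart. Of these, 17 (0.299%) were higher and 18 (0.317%) lower in the knockout-labelled library. In the remaining cells 25 (0.44%) were apart. The 2 lists shared 20 genes in the same direction, 57.1% of the first and 80% of the second. The difference between the 2 lists was not tested. Eomes, a streak factor, stood at 80.3 CPM in the wild-type-labelled library and 185 CPM in the knockout-labelled library within the chosen cells, and at 92.5 and 186 CPM in the rest. The imprinted adaptor gene Grb10 stood at 65.0 and 8.23 CPM within the chosen cells, and at 67.3 and 10.4 CPM in the rest. Mycn stood at 31.0 and 16.1 CPM, and at 28.1 and 16.4 CPM. The 10 choosing genes had a median log2 ratio between the libraries of -0.04 in the chosen cells and 0.01 in the rest.

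Cells with a low share of UMIs from chromosome 11 were more frequent among the chosen cells of both libraries. Low means at most 0.8 times the median share, over cells with at least 4000 UMIs and without the 10 choosing genes. They made up 29.5% (26.5 to 32.7) of chosen cells and 16.6% (15.8 to 17.4) of the rest in the wild-type-labelled library, and 11.1% (9.21 to 13.2) and 5.30% (4.85 to 5.78) in the knockout-labelled library. For chromosome 6 the shares were 28.3% and 20.9%, and 18.5% and 18.2%. Cells low in chromosome 11 were shallower, with a median of 9430 UMIs against 11026.5 and 7533 against 8850, and the part of depth or of the cell cycle in this share was not tested.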

How the data were processed

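Transcripts were counted in single cells of 2 10x Genomics 3′ libraries. The deposited values are raw UMI counts for every gene in every barcode. Per the labels' protocols, reads were processed with Cell Ranger 8.0.1, and the submitters' processing notes name STARsolo, STAR 2.7.9a, Seurat 5.1.0 and the build mm10. Which of them made the deposited counts, and whether counting used strand, is not given in the sources used here, so reads of overlapping antisense genes may not be told apart. The deposited matrices list every possible barcode, and cells were called by the limits given with the results. Doublets were scored with Scrublet (scanpy 1.11.5) at 0.8% per 1000 cells and removed only in an alternative.

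Counts were summed over the chosen cells and over the rest of each library, and each sum was scaled to its own total (CPM). Log2 ratios carry a pseudocount of 0.5. Intervals are at 95%: exact Poisson for levels, exact conditional for ratios, Clopper-Pearson for shares of cells, and for counting error only. With 1 library per genotype no test was made. A gene was called at 1.5-fold in both libraries. The cells, the 25 gene lists and the rules were chosen with earlier results of these data known.

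Named genes are the 10 choosing genes, Sp5 and Sp8, up to 6 genes per list with the largest smaller ratio of the 2 libraries, the 15 highest and 15 lowest of all genes, and the 6 highest and 6 lowest between libraries. The gene 2810001G20Rik was named after its values were seen, as were T, Eomes, Cdx2 and other markers whose shares of cells are given. Promoters are from the RefSeq table of GRCm38.p6, matched by symbol. The summing and calling were tested on simulated counts. Alternatives were other shares of cells, cell filters, thinning to 4000 UMIs, doublet removal, scaling, the filter on low genes and 5 of the 10 choosing genes. Each library taken alone was added after seeing the data. Analyses used Python 3.11.15, numpy 2.4.6, scipy 1.17.1 and pandas 2.3.3.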

Additional observations from a re-analysis of the deposited data

How the results depend on the processing

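The counts of called genes moved by more than 1.5 times in some settings. The 48 genes higher in both libraries became 81 with UMIs per cell, 112 with a mean of at least 1 CPM, 21 when Ccnb1, Cdc20, Plk1, Cenpa and Cenpe chose the cells and 74 in the wild-type-labelled library alone. The 9 lower genes became 42 with a mean of at least 1 CPM, 19 in the wild-type-labelled library alone and 15 in the knockout-labelled library alone. The 26 other mitosis genes became 11 with the same 5 choosing genes and 41 in the wild-type-labelled library alone. The 5 lower replication genes became 3 with the top 5% of cells, with the top 20%, with UMIs per cell and with the same 5 choosing genes. The 35 genes apart between the libraries became 69 with the top 5% of cells, 64 after thinning, 464 with UMIs per cell and 854 with a mean of at least 1 CPM. In the other settings run, the counts stayed within 1.5 times. Of the named genes whose intervals excluded 0 in both libraries, Sox2 alone lost its direction: after thinning its log2 ratios were -0.17 and 0.20, so the smaller ratio shared by both was 0. No paired analysis was possible because each genotype has 1 library.

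Depth limits the low genes most, since genes near 10 CPM have intervals as wide as that of Hyls1. Levels in each library come from 1 pool of aggregates, and the spread between cultures was not measured. Removing the highest doublet scores gave 49 higher and 9 lower genes.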
